A study of Mus musculus with 7 samples.

Results

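RNA-seq values of the 3 genes for the chains of C1q (C1qa, C1qb and C1qc) and of 4 genes for receptors of complement fragments (C3ar1, C5ar1, C5ar2 and Itgam) were compared between unlasered and lasered retinal microglia (rMG). The 7 genes were taken by their symbols from the 40743 genes that the deposited table lists. The values came from 7 libraries labelled Irf8 KO, of which 3 were unlasered and 4 were lasered, the latter sorted 7 days after photocoagulation. The laser burns 3 to 6 spots through the outer retina of an eye and starts choroidal neovascularisation (CNV). All mice, unlasered ones included, carried the genotype Irf8-/- Cx3cr1GFP/+, a knockout of the transcription factor gene Irf8 in every cell combined with a GFP reporter in the fractalkine receptor gene. The unlasered mice were adults without treatment, and an age in weeks for the sequenced mice is not given in the sources used here. Control mice with intact Irf8 were not analysed here, so no value below describes an effect of the knockout. Each library pooled the rMG of 3 to 4 mice (10000 cells on average), so the spread between libraries is a spread between pools. rMG were sorted as CD45low CD11b+ GFP+ cells without Ly6C and Ly6G. From lasered eyes the central 70% of the retina was taken, so injury and the part of the retina sampled cannot be told apart.

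Complement is a cascade of proteins that tag surfaces for removal and call in phagocytes. C1q, assembled from equal numbers of A, B and C chains, recognises tagged or damaged surfaces and starts the classical pathway, which leads to cleavage of C3 and C5. The small fragments C3a and C5a act on receptors of the G protein-coupled kind encoded by C3ar1 and C5ar1, and C5ar2 encodes another C5a receptor that does not couple to G proteins. The large fragment iC3b binds complement receptor 3 (CR3), a pair of the integrin chains CD11b, encoded by Itgam, and CD18, encoded by Itgb2. In the brain and retina microglia are a main source of C1q, and C1q and CR3 are known for the removal of synapses.

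The 3 C1q genes lie side by side on the minus strand of chromosome 4 (GRCm38). C1qb spans chr4:136880129-136886187, C1qc spans chr4:136889804-136893065 and C1qa spans chr4:136895917-136898803, with gaps of 3616 and 2851 bases between them. The C5a receptor genes are also neighbours, on the minus strand of chromosome 7, C5ar2 at chr7:16234585-16244154 and C5ar1 at chr7:16246743-16259540, with 2588 bases between them. C3ar1 lies at chr6:122847138-122856161 on the minus strand and Itgam at chr7:128062640-128118491 on the plus strand. All 7 are annotated as protein-coding.

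The stretches of 250 bases before the start sites of C1qb, the chain whose read share was higher in every lasered library, and of Itgam, the ligand-binding chain of CR3, are shown from RefSeq (GRCm38.p6), on the strand of the gene from 5′ to 3′. They lie at chr4:136886201-136886450 and chr7:128062390-128062639. Capitals mark GAGGAA, the core letters of sites for PU.1, the myeloid partner of IRF8, on either strand.
C1qb: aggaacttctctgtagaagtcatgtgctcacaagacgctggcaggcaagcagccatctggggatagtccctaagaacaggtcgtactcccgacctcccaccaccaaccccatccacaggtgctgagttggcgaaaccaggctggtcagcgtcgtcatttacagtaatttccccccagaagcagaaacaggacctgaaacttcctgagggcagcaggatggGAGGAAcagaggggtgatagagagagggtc
Itgam: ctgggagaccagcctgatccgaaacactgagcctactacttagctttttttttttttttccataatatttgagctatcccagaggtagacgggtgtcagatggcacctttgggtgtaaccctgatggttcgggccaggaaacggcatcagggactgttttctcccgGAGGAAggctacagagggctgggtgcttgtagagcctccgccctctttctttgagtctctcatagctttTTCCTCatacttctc
GAGGAA stood 30 to 25 bases before the start of C1qb on the strand of the gene. Before the start of Itgam it stood 84 to 79 bases upstream on the strand of the gene and 15 to 10 bases upstream on the opposite strand. The RefSeq start sites of C1qc and C5ar1 lie inside the gene spans given above, which come from GENCODE M21, so 151 and 202 of the 250 bases before them fall within these spans, and their sequences are not shown. The C1qc window held GAGGAA 193 to 188 bases before its RefSeq start on the opposite strand, and these letters were not in the window of C5ar1. C5ar2 held GAGGAA before its RefSeq start site 2, and all 250 bases of that window fall within its gene span. The window before its start site 1, outside the span, did not hold these letters. In windows of this length 23.3% of 32851 RefSeq start sites held GAGGAA. The AP-1 letters TGAGTCA, in 4.46% of windows, were before C3ar1 only among the members. Both strands were searched for both motifs, and 6 of the 7 members had a RefSeq window.

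Levels are given in CPM, the reads of a gene divided by all reads of the library on a fixed scale, although the deposited table heads them TPM. Unlasered libraries held 20427558 to 36022954 reads and lasered ones 37133297 to 45919042, so depth moved with the group. The lowest count of any member was 1010 reads, for C5ar2 in unlasered library 1. The targeted gene itself was listed at 530, 489 and 507 CPM in unlasered libraries and at 463, 465, 475 and 582 CPM in lasered libraries, only as reads shared with an overlapping gene model. Reads over this gene were thus present in the libraries labelled Irf8 KO, and the table does not show which part of the gene they cover. All 8 microglia markers were detected, with summed levels of 22248 to 26589 CPM in unlasered and 20414 to 27181 CPM in lasered libraries. Rod photoreceptor markers summed to 2055 to 18853 CPM in unlasered and to 303 to 950 CPM in lasered libraries. Of the 13 tested, 12 were called lower at a limma adjusted p under 0.05. Pde6a also had a negative log2 fold change, -1.82, with a limma adjusted p of 0.0836. Markers of border macrophages summed to 2823 to 3116 CPM in unlasered and to 1951 to 2241 CPM in lasered libraries, and 2 of the 7 tested were called lower. Over all genes tested 3.07% were called lower. In sorted pools, fewer cells of a kind and less RNA per cell cannot be told apart.

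Of the 7 genes only C5ar1 passed the test, with a level lower after laser injury. The C1q chains were among the most abundant transcripts of the rMG in both groups, and their sum stayed within the spread between libraries while the share of C1qb within it was higher in every lasered library. Genes were tested with limma on log2(CPM + 1), with p-values adjusted over all 17496 genes that passed the filter on low values, and all 7 members passed that filter. Of all genes tested 6.93% were called at an adjusted p under 0.05, 3.86% higher and 3.07% lower in lasered libraries, against 1 of the 7 members, which was lower. At an unadjusted p under 0.05, 2 of the 7 members and 3963 of all genes tested passed. The 2 groups did not overlap for 2 of the 7 members, C1qb (higher) and C5ar1 (lower), against 21% of all genes tested (10.4% higher and 10.7% lower). The median log2 fold change of the 7 members was 0.10, beside -0.01 over all genes tested.

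**Figure D1:**
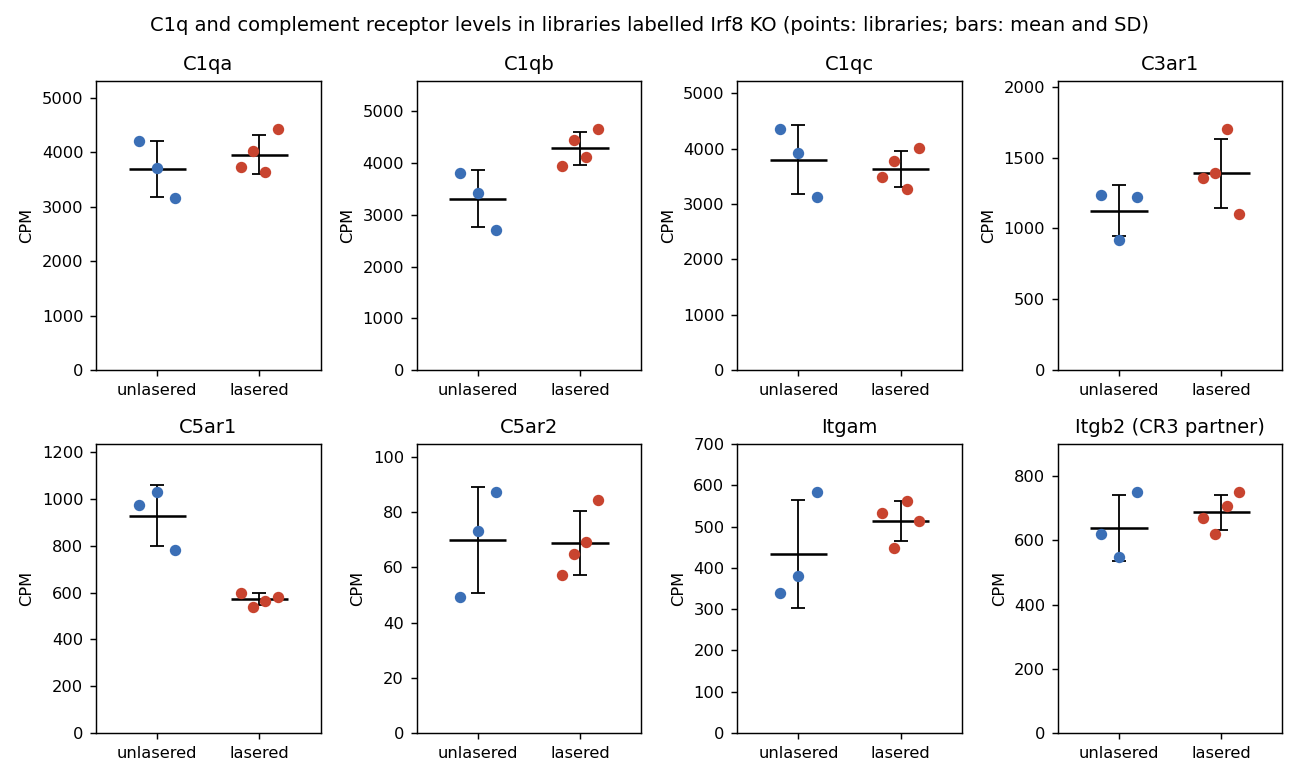
Levels in CPM (linear axes from 0) of the 7 genes and of Itgb2, the partner chain of Itgam, with a point for each of the 3 unlasered and 4 lasered libraries and bars for mean and SD. The lasered C5ar1 points lie between 540 and 600 CPM, below all unlasered points, and all lasered C1qb points lie above the unlasered ones.

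C1qa encodes the A chain of C1q. Its level was 4201, 3711 and 3170 CPM in unlasered libraries 1, 2 and 3 and 3723, 4031, 3647 and 4424 CPM in lasered libraries 1 to 4. The groups overlapped, with the highest value in lasered library 4 and the lowest in unlasered library 3. The log2 fold change of C1qa was 0.10 (SE 0.13, 95% interval -0.18 to 0.39), with an adjusted p of 0.679 by limma.

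C1qb encodes the B chain. Its level was 3803, 3432 and 2711 CPM in unlasered libraries and 3941, 4444, 4116 and 4656 CPM in lasered libraries. Every lasered library lay above every unlasered one, although the gap between lasered library 1 and unlasered library 1 was small. C1qb had a log2 fold change of 0.38 (SE 0.13, 95% interval 0.08 to 0.68), with a limma p of 0.0175 before and 0.123 after adjustment, so it was not called. In the 14 alternative settings the log2 fold change of C1qb stayed between 0.24 and 0.49, with adjusted p-values from 0.083 to 0.294.

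C1qc encodes the C chain. Its level was 4349, 3915 and 3123 CPM in unlasered libraries and 3487, 3778, 3264 and 4009 CPM in lasered libraries. The groups overlapped over most of their range. With a log2 fold change of -0.05 (SE 0.13, 95% interval -0.36 to 0.25) and an adjusted p of 0.854 by limma, C1qc was not called.

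The 3 chains moved together from library to library. Unlasered library 3 was the lowest of its group for each chain, and lasered library 4 the highest of its group. After removal of the group means, the correlation of log2(CPM + 1) over the 7 libraries was 0.96 for C1qa with C1qb, 0.98 for C1qa with C1qc and 0.96 for C1qb with C1qc. Each library contributes one scaling to all 3 chains, which is part of what these points share. Summed over the chains, C1q reached 12353, 11058 and 9004 CPM in unlasered libraries and 11151, 12254, 11026 and 13089 CPM in lasered libraries. The group means of the sum were 10805 ± 1689 (SD, n = 3) and 11880 ± 977 (SD, n = 4), a difference with p = 0.457 in a two-sided exact permutation test (adjusted p = 0.457 over 7 measures). The difference of 1075 CPM became 175 CPM without unlasered library 3 and 1849 CPM without unlasered library 1. By level over all listed genes, C1qc, C1qa and C1qb held ranks 15, 16 and 17 in unlasered libraries, and C1qb, C1qa and C1qc held ranks 11, 15 and 17 in lasered libraries.

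The balance between the chains was then compared within libraries. A share of the summed C1q reads does not depend on how libraries are scaled. C1qb took 30.8%, 31.0% and 30.1% of C1q reads in unlasered libraries and 35.3%, 36.3%, 37.3% and 35.6% in lasered libraries. The unlasered values lie within 1 percentage point, and all lasered values are higher. The share of C1qb was 30.6% ± 0.482 (SD, n = 3) in unlasered and 36.1% ± 0.890 (SD, n = 4) in lasered libraries, with p = 0.0571 in an exact permutation test, the smallest value that 3 against 4 libraries allow (adjusted p = 0.133). The share of C1qc was 35.1% ± 0.371 and 30.6% ± 0.709, lower in every lasered library, with the same exact permutation p of 0.0571 (adjusted 0.133). C1qa took 34.3% ± 0.853 and 33.3% ± 0.394, with overlapping groups and an exact permutation p of 0.114 (adjusted 0.16). Because the shares add up to 100%, the share of a chain cannot move alone.

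Read directly against each other, C1qb had 0.874, 0.877 and 0.868 reads for each C1qc read in unlasered libraries and 1.13, 1.18, 1.26 and 1.16 in lasered libraries. This ratio was chosen after the shares had been seen and was not tested. Unlasered libraries were nearly identical in it, and C1qb led C1qc in the lasered libraries only. Sequencing runs and library batches are not given in the sources used here, so a batch that coincides with the groups cannot be told apart from laser injury in this ratio and in the shares. Total reads and rod marker sums also differed between the groups without overlap, and their part in the ratio and the shares was not tested. For C1qa the ratio to C1qc was 0.966, 0.948 and 1.02 in unlasered and 1.07, 1.07, 1.12 and 1.10 in lasered libraries, also without overlap.

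**Figure D2:**
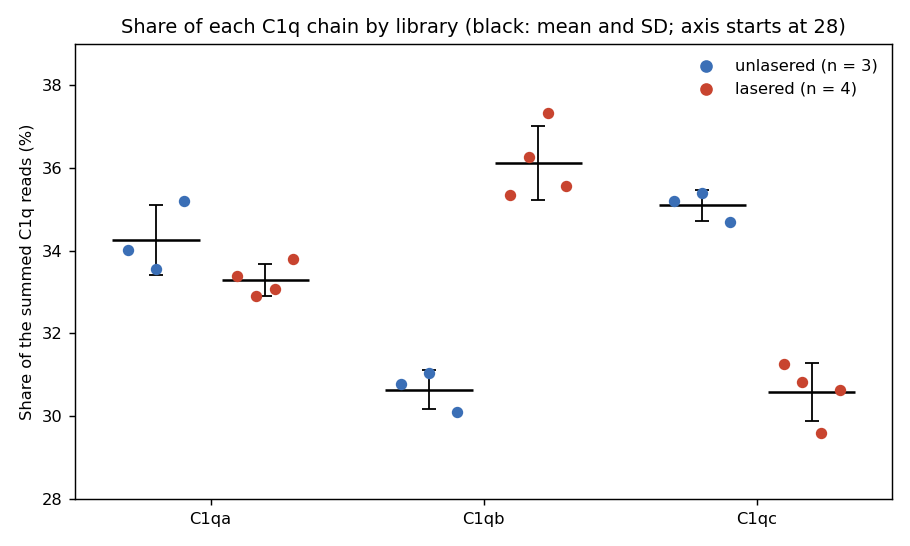
Share of each chain in the summed reads of C1qa, C1qb and C1qc (percent; the axis starts at 28), with a point for each unlasered and lasered library and black bars for mean and SD. The C1qb points lie at 30.1 to 31.0% in unlasered and at 35.3 to 37.3% in lasered libraries, the C1qc points lie lower in lasered libraries, and the C1qa points overlap.

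C3ar1 encodes the receptor of the anaphylatoxin C3a. Its level was 1236, 916 and 1220 CPM in unlasered libraries and 1359, 1391, 1700 and 1101 CPM in lasered libraries. Lasered library 4 fell within the unlasered range, and the other lasered libraries lay above it. C3ar1 had a log2 fold change of 0.30 (SE 0.17, 95% interval -0.08 to 0.68), with an adjusted p of 0.331 by limma.

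C5ar1 encodes the signalling receptor of C5a, a strong attractant of phagocytes. Its level was 973, 1030 and 781 CPM in unlasered libraries and 600, 540, 564 and 579 CPM in lasered libraries. All lasered libraries lay below all unlasered ones and close to each other. Mean levels were 928 ± 130 CPM (SD, n = 3) and 571 ± 25.3 CPM (SD, n = 4), 38.5% lower after laser injury. The log2 fold change of C5ar1 was -0.69 (SE 0.12, 95% interval -0.97 to -0.42), with a limma p of 0.000289 and an adjusted p of 0.0162. Among all listed genes C5ar1 moved from rank 84 to rank 183.

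C5ar1 stayed past the threshold in 12 of 14 alternative settings, with log2 fold changes between -0.81 and -0.61 and adjusted p-values between 0.000123 and 0.108. Without lasered library 2 the log2 fold change was -0.67 with an adjusted p of 0.0568 by limma. Some markers of other cell types also differed between the groups, in either direction. The border macrophage markers Pf4 and Ms4a7 fell with log2 fold changes of -0.89 and -0.81 (limma adjusted p of 0.0285 and 0.047). The other tested markers of this list were not called, with log2 fold changes of -0.59 for Mrc1, -0.02 for Cd163, 0.10 for Stab1, 0.13 for F13a1 and 1.06 for Cbr2 (limma adjusted p from 0.0799 for Cbr2 to 0.969 for Cd163). Lyve1, a defining marker of such macrophages, reached at most 1.11 CPM in any library and was not tested. Markers of Mueller glia summed to 645 to 942 CPM in unlasered and to 279 to 589 CPM in lasered libraries. Of the 5 tested, Dkk3 fell (-0.91, limma adjusted p of 0.0138) and Gfap rose (1.59, limma adjusted p of 0.0311). Gfap stood at only 0, 0 and 1.53 CPM in unlasered and at 3.87, 2.18, 3.79 and 2.85 CPM in lasered libraries. Its unlasered values alone would not have passed the filter on low values. Slc1a3, Rlbp1 and Glul were not called, with log2 fold changes of -2.14, -0.42 and -0.10 (limma adjusted p of 0.155, 0.481 and 0.788). The part of rod, Mueller glia and border macrophage RNA in the lower level of C5ar1 was not tested. Markers of monocytes and neutrophils, which also carry this receptor, summed to 21.7 to 72.4 CPM in unlasered libraries. In lasered libraries 1 to 4 their sums were 136, 190, 33.1 and 11.6 CPM, and 0 of the 5 tested were called. Dendritic cell markers summed to 24.9 to 45.2 CPM in unlasered libraries. Their sums were 140, 148, 43.3 and 40.2 CPM in lasered libraries 1 to 4, and 0 of the 6 tested were called.

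C5ar2 encodes the C5a receptor without G protein coupling. Its level was 49.4, 73.3 and 87.4 CPM in unlasered libraries and 57.3, 64.7, 69.1 and 84.5 CPM in lasered libraries. The lasered values all lay within the unlasered range. C5ar2 had a log2 fold change of 0.00 (SE 0.21, 95% interval -0.47 to 0.47), with an adjusted p of 0.999 by limma. Reads of C5ar2 were shared with a small nuclear RNA gene within it, in a fraction not determined. Its level is therefore less certain than that of C5ar1.

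Itgam encodes CD11b, whose protein was a gate of the sort, so cells without it were not collected. Its level was 340, 379 and 584 CPM in unlasered libraries and 533, 448, 562 and 514 CPM in lasered libraries. Unlasered library 3 was the highest of all 7 libraries, and the other unlasered libraries were the lowest. The log2 fold change of Itgam was 0.28 (SE 0.18, 95% interval -0.14 to 0.70), with an adjusted p of 0.419 by limma. Without unlasered library 3 it was 0.51 with an adjusted p of 0.0468 by limma, so this library decides the call, and over the 14 alternatives adjusted p-values ran from 0.0468 to 0.795. Reads of Itgam were shared with an overlapping gene model on the same strand, and the shared fraction was not determined. Itgb2, its partner chain, stood at 621, 547 and 750 CPM in unlasered and at 671, 621, 708 and 751 CPM in lasered libraries, with a log2 fold change of 0.11 (SE 0.13, limma adjusted p of 0.673).

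Pairs of receptor genes were then compared within libraries. C3ar1 reads outnumbered C5ar1 reads 1.27, 0.889 and 1.56 times in unlasered libraries and 2.27, 2.58, 3.01 and 1.90 times in lasered libraries. Only unlasered library 2 had more C5ar1 than C3ar1 reads, and the groups did not overlap. The log2 ratio of C3ar1 to C5ar1 was 0.27 ± 0.411 (SD, n = 3) and 1.27 ± 0.282 (SD, n = 4), with p = 0.0571 in an exact permutation test (adjusted p = 0.133), again the smallest p this design allows. The log2 ratio of C5ar1 to C5ar2 was 3.76 ± 0.570 (SD, n = 3) and 3.06 ± 0.251 (SD, n = 4), with overlapping groups and p = 0.114 in an exact permutation test (adjusted p = 0.16). The unlasered libraries spread widely in this ratio, from 8.94 to 19.7 C5ar1 reads for each C5ar2 read. The log2 ratio of the CR3 chains Itgam to Itgb2 was -0.59 ± 0.259 (SD, n = 3) and -0.42 ± 0.107 (SD, n = 4), with p = 0.286 in an exact permutation test (adjusted p = 0.333), and the difference of 0.17 became 0.02 without unlasered library 1 and 0.28 without unlasered library 3. Unlasered library 1 had the lowest ratio, 0.548 Itgam reads for each Itgb2 read, and the other 6 libraries lay between 0.684 and 0.794.

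**Figure D3:**
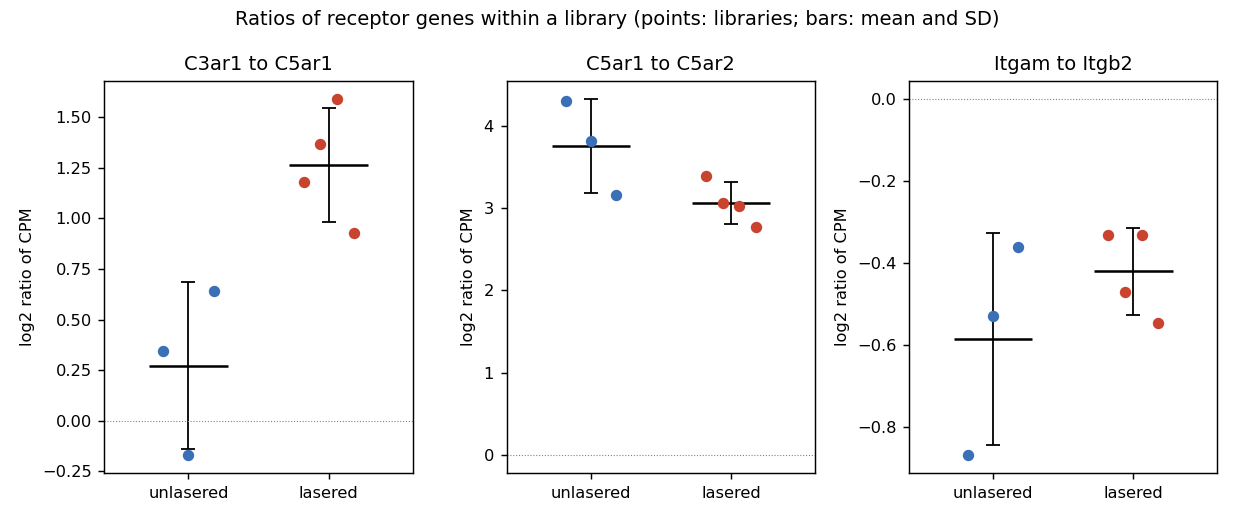
Log2 ratios of the CPM of C3ar1 to C5ar1, C5ar1 to C5ar2 and Itgam to Itgb2 in each unlasered and lasered library, with bars for mean and SD and a dotted line at equal levels. The C3ar1 to C5ar1 points do not overlap between groups, and those of the other ratios do.

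For comparison between genes, levels were divided by the exonic length of each gene in GENCODE M21. On this scale of CPM per kilobase, C1qa led in unlasered libraries with 3552 ± 496 (SD, n = 3), before C1qb with 3047 ± 510 and C1qc with 1966 ± 322. In lasered libraries C1qb led with 3942 ± 295 (SD, n = 4), before C1qa with 3804 ± 339 and C1qc with 1882 ± 169. C1qa stood above C1qb in each unlasered library and below it in each lasered library, though the group means lie close within their spread. Among receptors, C5ar1 with 361 ± 50.6 stood above C3ar1 with 261 ± 41.9 in each unlasered library, and C3ar1 with 322 ± 57.0 above C5ar1 with 222 ± 9.83 in each lasered library. CR3 came below, with Itgb2 at 209 ± 33.6 and 225 ± 18.2 CPM per kilobase and Itgam at 86.5 ± 26.1 and 102 ± 9.66. Itgb2 did not differ from C5ar1 beyond the spread in lasered libraries, where C5ar1 was higher in 2 of 4. C5ar2 was lowest in all 7 libraries, at 19.7 ± 5.38 and 19.3 ± 3.22. The sources used here do not say whether introns were counted. Per kilobase of gene span, means over the 7 libraries were 639 for C1qb, below 1135 for C1qc, and 56.6 for C5ar1, below 141 for C3ar1, so the order between these genes depends on the length used.

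Across libraries the receptors differed in how they followed C1q. After removal of group means, Itgam ran opposite to the C1q chains, with correlations of -0.82, -0.91 and -0.90 with C1qa, C1qb and C1qc over the 7 libraries, and C5ar2 and Itgam correlated at 0.66. C3ar1 correlated with the chains at -0.43, -0.34 and -0.48, and C5ar1 at 0.56, 0.65 and 0.66. These are descriptions of 7 libraries that share depth and scaling. Among 4089 genes with a mean of at least 50 CPM, the levels most like the mean of the C1q chains over the 7 libraries were those of Ergic3 (Pearson r 0.987), Trem2 (0.986), a lipid-sensing receptor of microglia, and Aup1 (0.975). The levels most like C5ar1 were those of Hnrnpm (0.983), Hspa5 (0.983), a chaperone of the endoplasmic reticulum, and Sec62 (0.981), which takes part in the import of proteins there. These genes were chosen over all 7 libraries, the difference between groups included, so their lower lasered levels, with log2 fold changes of -0.38, -0.52 and -0.71, are part of the choice. For C3ar1 the closest genes were Dr1 (0.973), Grb2 (0.959) and Ube2d3 (0.958), for C5ar2 Brf1 (0.928), Mbtps1 (0.925) and Clptm1 (0.920), and for Itgam Mob1a (0.994), Glg1 (0.982) and Ppp2r5c (0.977).

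Other genes of complement were read from a list of 44 further components, regulators and receptors. Of these, 24 passed the filter, 2 rose, 1 fell and 21 were not called, and the median log2 fold change was 0.10. Over all genes tested 6.93% were called. The genes that rose, C3 and Cfp, are the 2 tested members of the group of C3 and the alternative pathway. C3, the central component of the cascade and source of C3a and iC3b, stood at 24.1, 29.0 and 109 CPM in unlasered and at 139, 152, 188 and 130 CPM in lasered libraries. Unlasered library 3 lay close to the lasered libraries. C3 had a log2 fold change of 1.80 (SE 0.44, limma adjusted p of 0.0438), and reads of C3 were shared with an overlapping gene. It was called in only 3 of 14 alternative settings, not by edgeR or DESeq2, and of the fits without a single library only in that without unlasered library 3. Cfp, which encodes properdin, a stabiliser of the alternative pathway convertase, stood at 73.0, 71.2 and 68.9 CPM in unlasered and at 187, 227, 136 and 159 CPM in lasered libraries. The lasered levels of Cfp were all well above the unlasered ones, with a log2 fold change of 1.28 (SE 0.17, limma adjusted p of 0.00749), and it was called in 13 of 14 alternative settings.

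Vtn, which encodes vitronectin, an inhibitor of the terminal pathway, was the gene that fell. It stood at 31.6, 268 and 82.4 CPM in unlasered and at 12.1, 7.51, 12.7 and 2.29 CPM in lasered libraries, with a log2 fold change of -3.42 (SE 0.70, limma adjusted p of 0.0261). Vtn was not called without unlasered library 2, unlasered library 3, lasered library 2 or lasered library 3. The order of the unlasered libraries in Vtn was that of their rod marker sums of 2055, 18853 and 5392 CPM. In lasered libraries 1 to 4 the rod marker sums were 950, 420, 774 and 303 CPM, an order that differed from that of Vtn. The part of rod RNA in the level of Vtn was not tested. None of the 8 tested genes of the classical and lectin pathway was called by limma, and 2 had an unadjusted p under 0.05. C4b, a component cleaved by the C1 complex, had 150, 180 and 366 CPM in unlasered and 778, 581, 491 and 307 CPM in lasered libraries, with a log2 fold change of 1.25 (SE 0.36, limma adjusted p of 0.0725), and its reads are uncertain because C4a is a near-identical copy. C4b was called in 4 of 14 alternative settings, by limma with median-of-ratios scaling, without unlasered library 3 and without lasered library 4, and by DESeq2. Of the whole list 3 genes were called by edgeR and 6 by DESeq2, and edgeR called C6 in place of C3. C6, a component of the membrane attack complex named here after its values were seen, stood at 7.05, 4.88 and 10.5 CPM in unlasered and at 87.3, 65.5, 46.8 and 8.00 CPM in lasered libraries, with a log2 fold change of 2.29 (SE 0.68, limma adjusted p of 0.0815). C6 was called in 3 of 14 alternative settings, by edgeR, by DESeq2 and by limma without lasered library 4. For the list, without single libraries the count ran from 1 to 5. It was 1 without unlasered library 2, lasered library 2 or lasered library 3, and 5 without unlasered library 3 or lasered library 4.

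**Figure D4:**
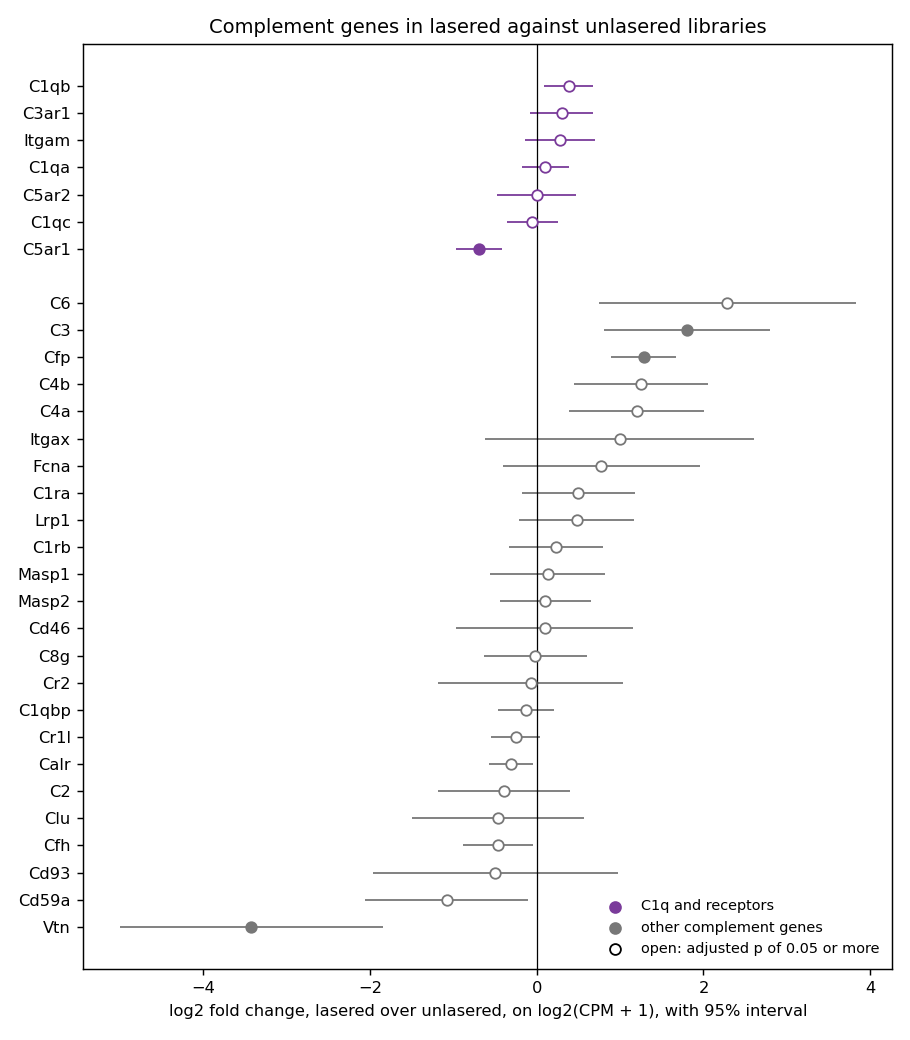
Log2 fold changes of lasered over unlasered libraries on log2(CPM + 1), with 95% intervals, for the 7 members (purple) and the 24 tested genes of the list of other complement genes (grey), where filled circles have an adjusted p under 0.05. C5ar1 is the filled member, at -0.69, and C3, Cfp and Vtn are filled at 1.80, 1.28 and -3.42.

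Partners and signalling genes of the receptors were read beside all 17496 genes tested. Of those 6.93% were called and 3963 had an unadjusted limma p under 0.05. Of 10 genes of the CR3 beta chain, its adaptors and kinases, 0 were called by limma and by edgeR and 1 by DESeq2, 1 had an unadjusted p under 0.05, and the median log2 fold change was 0.13. Without unlasered library 3, limma called 2 of them. The most abundant were Fcer1g and Tyrobp, which encode adaptors with immunoreceptor tyrosine-based activation motifs, and the kinase gene Lyn, with log2 fold changes of -0.05, 0.21 and 0.15 (limma adjusted p of 0.860, 0.366 and 0.503). Of 15 genes for signalling from anaphylatoxin receptors, 13 were tested and 1 was called by limma, and the median log2 fold change was 0.11. That gene, Gnai2, encodes an inhibitory G protein subunit to which C3a and C5a receptors couple, and it stood at 717, 731 and 719 CPM in unlasered and at 992, 1118, 877 and 942 CPM in lasered libraries. Gnai2 had a log2 fold change of 0.44 (SE 0.11, limma adjusted p of 0.0498), at the edge of the threshold. Reads of Gnai2 were shared with another gene. With any single library left out, 0 genes of this list were called. Gnb1, whose product is also part of the rod G protein, had a log2 fold change of -1.05 (limma adjusted p of 0.12), and Pik3cg, a kinase gene downstream of these receptors, had 0.15 (adjusted p of 0.794).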

How the data were processed

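RNA-seq values of sorted rMG were analysed in 7 libraries. The authors used cutadapt and FastUniq against adapters and duplicates, Bowtie2 for mapping, HTSeq for counting on Ensembl annotation 90, and DESeq2 to compare groups. The deposited values are headed TPM but are CPM: each is a whole multiple of 1 step per library, whatever the gene's length, so whole reads were recovered (within 0.1 read) for 100% of values. The build in the submitters' processing notes is GRCm38. Genes reaching 1 CPM in 3 or more libraries were fitted with limma 3.58.1 (R 4.3.3, statmod 1.5.0) on log2(CPM + 1), a scale that understates changes of low genes, with a trend, robust empirical Bayes and two-sided tests, Benjamini-Hochberg adjusted. Shares and ratios were tested by exact permutation, adjusted over 7 measures. The alternatives included edgeR 4.0.16 and DESeq2 1.42.0 on recovered reads. Nothing says that libraries came from separate experiments, so p-values measure the spread between these pools.

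The 7 members and the gene lists were chosen with earlier results of these data known. Named genes are the members, Itgb2, Irf8, the called genes of each list (where fewer than 3 passed, its 3 most abundant), and the 3 genes most correlated with each receptor and with the mean of the C1q chains. Border macrophage and Mueller glia genes come from the marker lists. In data simulated for this comparison, limma called 19.2% of 198 genes changed 1.5-fold, 91.2% of 194 changed 2-fold and 100% of 194 changed 4-fold. The spread between simulated libraries was assumed and not estimated from these pools, so these percentages need not hold here. In the real libraries C6, with a log2 fold change of 2.29, was not called (limma adjusted p of 0.0815). The floor was 3 reads, 0.0653 to 0.147 CPM, and covers counting error only. Permutation tests ran in scipy 1.17.1 under Python 3.11.15, tables in pandas 2.3.3 and plots in matplotlib 3.10.9.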

Additional observations from a re-analysis of the deposited data

Results flagged for a closer look

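Of 29 groups of values that were examined, 1 held a library far from its group. The level of Irf8 was 582 CPM in lasered library 4 against 463 to 475 CPM in the other lasered libraries, a gap of 0.897 of the group's range, above Dixon's 95% limit for 4 samples. Chance gives such a gap in about 1 of 20 groups.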

How the results depend on the processing

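Over all genes, the count of 1213 calls became 385 without a filter on low values, 2318 with DESeq2 and 264 to 1248 when single libraries were left out, lowest without lasered library 2. The count of members called, 1, ran from 0 (without lasered library 2) to 2 (without unlasered library 3). The count for other complement genes, 3, became 1 without a filter, 5 with median-of-ratios scaling, 6 with DESeq2 and 1 to 5 without single libraries. The count for CR3 partners, 0, became 1 with median-of-ratios scaling, 1 with DESeq2 and 0 to 2 without single libraries. The count for anaphylatoxin receptor signalling, 1, became 0 without a filter, with a mean of at least 10 reads, with edgeR and without any single library, and 2 with DESeq2. With the replicate number as a block, 3 genes over all were called, with 0 members, 0 other complement genes, 0 CR3 partners and 0 anaphylatoxin signalling genes, and C5ar1 had a log2 fold change of -0.70 (limma adjusted p of 0.108). Same-numbered libraries did not deviate together (correlations of -0.183, -0.126 and -0.0234), so the number was not taken as a pairing. Log2 fold changes near 0 changed sign. Without single libraries, that of C1qa ran from -0.0013 (without unlasered library 3) to 0.20, that of C1qc from -0.19 to 0.051 (without unlasered library 1) and that of C5ar2 from -0.23 (without unlasered library 1) to 0.18. That of C1qc became 0.029 with median-of-ratios scaling, and that of C5ar2 became -0.10 with the block, -0.0060 with edgeR and -0.0094 with DESeq2. None of these values was called. Chain shares and receptor ratios kept their direction in every alternative that was run. The cause of these changes was not tested. With 3 against 4 libraries no single measure can pass 0.05 in an exact permutation test.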
